A study of Homo sapiens with 6 samples.

Results

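Of 54261 rows in a table of read counts from A549 cells, 282 were typed as long noncoding RNA (lncRNA) and held at least 300 reads summed over 6 libraries, once the rows named SNHG, GAS5 and EPB41L4A-AS1 had been set aside. The 282 rows were the well-counted end of 14788 lncRNA rows, 5156 of which had at least 1 read, and 12 rows above the minimum were left out by name. A549 is a human lung adenocarcinoma line kept in culture. The cells had received an siRNA against SNHG17, itself a long noncoding host of small nucleolar RNAs (si-SNHG17, 3 libraries), or the control siRNA (si-NC, 3 libraries). The siRNA sequences, the dose and the time after transfection are not stated in the labels. Nothing in the labels says that libraries of a group stem from separate cultures, and each p-value below therefore reflects library-to-library spread, which may be technical. The rows were selected on their summed reads over both groups, not on the difference between the groups, so the difference could be tested. Reads were counted in total RNA sequenced single-end on an Ion Proton instrument, and whether counting used strand is not stated.

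A long noncoding RNA is a transcript that is not used, or hardly used, as a template for protein. Some stay in the nucleus, where they scaffold nuclear bodies or act on the gene beside them, others bind proteins or microRNAs in the cytoplasm, and others are known chiefly for the small nucleolar RNAs (snoRNAs) or microRNAs cut from their introns and exons. Many arise from the start site of a coding gene in the opposite direction, or lie antisense to one, so that their level is often read beside that of the neighbour.

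The sequences below show the start regions of 4 lncRNAs on which the comparison turned, chosen as the highest-ranked rise and falls among purely noncoding rows plus 1 start region that faces a coding gene. Each window spans 250 bases before to 50 bases after the RefSeq start on GRCh38.p14, written 5′ to 3′ on the strand of the lncRNA. Capitals mark a full cyclic AMP response element, TGACGTCA, searched on both strands. MEG3 lies at chr14:100825858-100826157 on the plus strand, LOC100129034 at chr9:124353223-124353522 on the plus strand, GACAT2 at chr18:8707572-8707871 on the minus strand, and JHDM1D-AS1, which RefSeq names KDM7A-DT, at chr7:140177011-140177310 on the plus strand.
MEG3: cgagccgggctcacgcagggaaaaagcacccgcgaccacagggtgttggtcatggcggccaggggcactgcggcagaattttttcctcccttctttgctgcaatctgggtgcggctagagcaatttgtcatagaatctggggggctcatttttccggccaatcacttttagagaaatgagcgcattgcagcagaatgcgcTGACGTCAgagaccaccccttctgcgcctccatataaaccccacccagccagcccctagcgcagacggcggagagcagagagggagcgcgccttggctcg
LOC100129034: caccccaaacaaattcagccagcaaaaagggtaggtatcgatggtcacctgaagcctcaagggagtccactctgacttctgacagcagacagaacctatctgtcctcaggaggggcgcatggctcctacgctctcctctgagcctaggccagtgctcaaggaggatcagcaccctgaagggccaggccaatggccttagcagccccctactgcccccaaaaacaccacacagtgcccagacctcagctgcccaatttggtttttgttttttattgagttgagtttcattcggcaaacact
GACAT2: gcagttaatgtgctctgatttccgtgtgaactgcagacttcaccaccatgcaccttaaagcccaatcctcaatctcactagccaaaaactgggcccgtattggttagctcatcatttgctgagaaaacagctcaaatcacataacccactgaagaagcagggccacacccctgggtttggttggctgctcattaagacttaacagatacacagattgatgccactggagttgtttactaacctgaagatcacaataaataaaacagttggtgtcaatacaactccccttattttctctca
JHDM1D-AS1: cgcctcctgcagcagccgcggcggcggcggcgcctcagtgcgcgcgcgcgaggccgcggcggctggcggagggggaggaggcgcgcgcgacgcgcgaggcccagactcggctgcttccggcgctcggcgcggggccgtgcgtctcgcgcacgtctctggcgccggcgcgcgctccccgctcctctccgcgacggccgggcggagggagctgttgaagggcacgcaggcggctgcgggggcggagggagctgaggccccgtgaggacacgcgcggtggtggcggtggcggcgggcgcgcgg
The MEG3 window held the element, which is present in 1.85% of 35116 RefSeq windows of the same length. The letters of AP-1 (TGANTCA, in 7.71% of windows), E2F (TTTCGCGC or TTTGGCGC, 1.15%), the NF-kB site (0.558%), the antioxidant element (TGACNNNGC, 13.3%) and the E-box (CACGTG, 7.26%) were searched as well and are not in these 4 windows; the AP-1 and antioxidant letters can overlap. The window of LOC100129034 held 4 CpG and that of GACAT2 held 2, against a median of 14 over all windows, whereas the window of the next most lowered row, LINC00173, held 18 and the median over lower noncoding rows was 21.5. The JHDM1D-AS1 window was 82% G and C and held 59 CpG. The match is a description of letters and no factor was measured.

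Mature microRNAs are encoded within some of the rows, and 1 mature arm for each of the 4 hosts that changed is shown with bases 2 to 8, the seed that pairs with targets, in capitals. The sequences are those of RefSeq.
hsa-miR-770-5p (MEG3): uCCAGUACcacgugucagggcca
hsa-miR-675-5p (H19): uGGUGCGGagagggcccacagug
hsa-miR-4435 (MIR4435-2HG): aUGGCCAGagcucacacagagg
hsa-miR-550a-3-5p (LOC646762): aGUGCCUGagggaguaagag
No seed was shared among the 4. Levels of the mature microRNAs were not analysed here.

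SNHG17 was checked first. It had 7.82, 8.39 and 11.3 CPM in si-SNHG17 and 38.7, 36.2 and 51.4 CPM in si-NC, where CPM is a count scaled to 1000000 reads with edgeR's TMM factors. That left 21.8% of the si-NC mean (log2 fold change -2.21, edgeR adjusted p = 2.84e-07). Library totals ran from 8643076 to 12477214 reads. One library stood apart from its group, si-NC replicate 3, at a chi-square per degree of freedom of 9.49 and 9.1 from si-NC replicates 1 and 2, which differed by 2.34. All 7 epithelial markers were detected, with summed levels of 9704 to 10324 CPM in si-SNHG17 and 12092 to 14154 CPM in si-NC, while PTPRC, CD3E and MS4A1 of 7 immune markers, SFTPB and SFTPA1 of 7 alveolar type 2 markers and COL1A2 and COL3A1 of 7 stromal and endothelial markers were at 0. In the alveolar type 2 list 4 markers had at least 10 reads, and the list summed to 129 to 147 CPM in si-SNHG17 and 106 to 120.4 CPM in si-NC. In the stromal and endothelial list 4 markers had at least 10 reads, and the list summed to 22.7 to 29.6 CPM in si-SNHG17 and 21.6 to 28.6 CPM in si-NC. CD68 and CD14, the 2 immune markers with at least 10 reads, brought that list to 488 to 585 CPM in si-SNHG17 and 205 to 288 CPM in si-NC, and the part of these shifts in the lncRNA results was not tested.

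The 282 rows took 0.662%, 0.646% and 0.654% of all counts in the si-SNHG17 libraries and 0.668%, 0.657% and 0.662% in the si-NC libraries. They held 68.9% to 70.9% of the reads of all lncRNA rows in every library. Reads were unevenly spread: the median row had 629.5 reads over 6 libraries, 193 rows had under 1000, and the highest row, NORAD, had 26668. The summed level was 6476 ± 57.1 CPM in si-SNHG17 and 6730 ± 82.9 CPM in si-NC (SD, n = 3 each). At the edge of the rule, LINC00886 with 300 reads was the last row inside, and DLEU1 with 299 and PXN-AS1 with 298 were the first outside.

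Read per length and leaving read-through rows aside, the leading noncoding rows in si-NC were the antisense RNA LOC645553 (RefSeq IGFL2-AS1) and NORAD, a long cytoplasmic RNA that binds PUMILIO proteins and guards chromosome number. Lengths were available for 191 rows as the summed exons of GENCODE 29. The others could not be ranked, among them LOC100129034 and LOC105371453, with means of 108 and 103 CPM in si-NC. LOC645553 reached 51.6, 45.4 and 49.2 CPM per kb in si-SNHG17 and 69.4, 61.1 and 79.0 CPM per kb in si-NC. NORAD reached 100.2, 93.2 and 102 CPM per kb in si-SNHG17 and 72.8, 67.4 and 60.5 CPM per kb in si-NC. The si-NC values of this pair interleaved, so their order in si-NC was not separated by the spread, while in si-SNHG17 every NORAD value stood above every LOC645553 value. LINC00674, with 61.7 ± 3.71 in si-SNHG17 and 65.1 ± 10.5 CPM per kb in si-NC, and LINC00493, which RefSeq lists as the small protein gene SMIM26, with 66.9 ± 6.65 in si-SNHG17 and 64.1 ± 3.42 CPM per kb in si-NC, lay within the same range. PCBP2-OT1 followed at 35.8 ± 5.31 CPM per kb in si-SNHG17 and 45.1 ± 1.78 CPM per kb in si-NC. It overlaps the coding gene PCBP2, with 21235 reads, on the same strand. How reads that fit both were assigned is not stated, so its level is uncertain. After it the snoRNA hosts LRRC75A-AS1 and ZFAS1 had 61.0 ± 5.08 and 50.2 ± 3.52 CPM per kb in si-SNHG17, against 38.6 ± 3.86 and 29.6 ± 1.34 CPM per kb in si-NC. NEAT1 and MALAT1, although among the rows with most reads, are long, and averaged 18.7 and 11.1 CPM per kb in si-SNHG17 against 15.3 and 16.0 CPM per kb in si-NC.

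**Figure D1:**
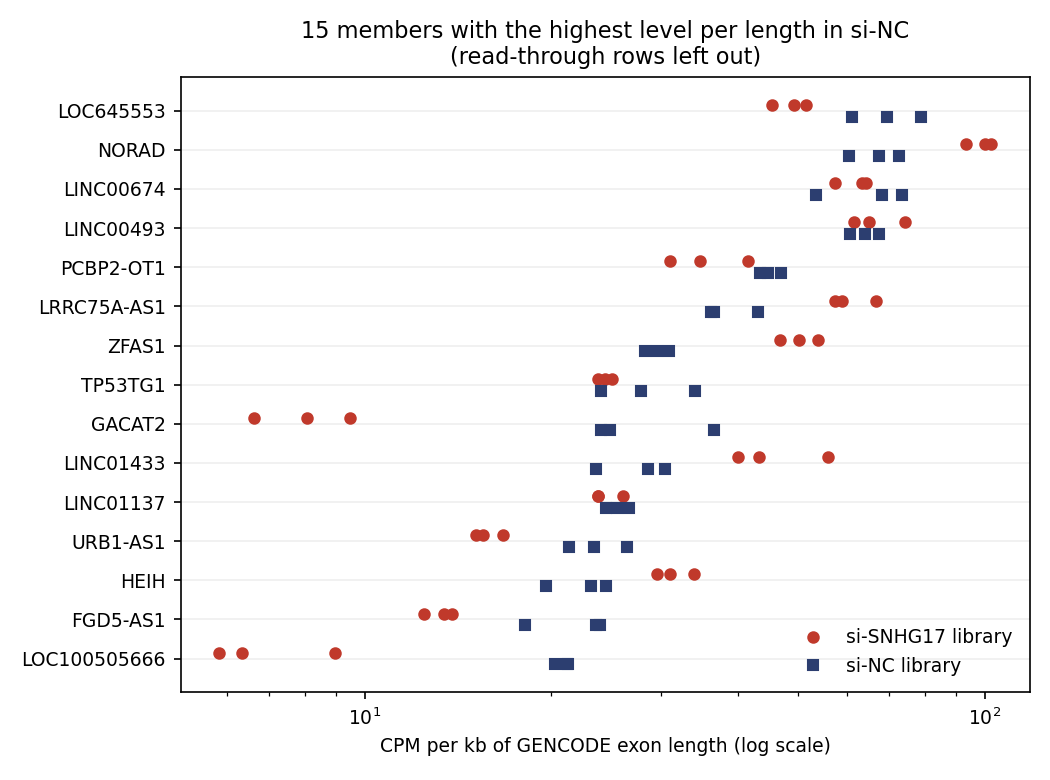
Level per kb of exon (CPM per kb, log axis) of the 15 rows with the highest si-NC mean per kb. Read-through rows and rows without a length are left out. Circles are si-SNHG17 libraries and squares si-NC libraries. NORAD, LRRC75A-AS1 and ZFAS1 lie to the right of their si-NC values, GACAT2 and LOC100505666 well to the left.

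All 282 rows were tested, in a fit over 15614 genes. In si-SNHG17, 35 were higher and 90 lower at an edgeR quasi-likelihood adjusted p under 0.05, and 157 did not pass. Without si-NC replicate 3, 39 were higher and 91 lower, and 118 of the 125 calls were shared. With all 6 libraries, the 35 higher and 90 lower rows were 12.4% and 31.9% of the 282. Of all genes tested, 19.6% were higher and 19.6% lower. Of the 11372 genes with at least 300 reads, 23% were higher and 22.3% lower. The share called in either direction, 44.3%, was close to the 45.3% of genes with at least 300 reads and above the 39.1% of all genes tested. Of the other 740 lncRNA rows tested, 28.2% were called, 5.41% higher and 22.8% lower. The difference in these shares and in the split of directions was not tested. The median log2 fold change of the rows was -0.19 (middle 50% from -0.53 to 0.16), against 0.02 for genes with at least 300 reads. In RNA from whole cultures, fewer cells that express a gene and less RNA per cell cannot be told apart.

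Changes of at least 2-fold were found in 6 rows upward and 23 downward, 10.3% of the rows against 9.38% of all genes tested and 6.97% of genes with at least 300 reads. The groups did not overlap in 150 rows, 53.2%, against 49.4% of all genes tested and 55% of genes with at least 300 reads. By read number, of 89 rows with 1000 reads or more, 20 were higher and 27 lower, and of 193 rows with fewer than 1000 reads 15 were higher and 63 lower. All genes were not split by the same read numbers, so this split cannot be read as particular to lncRNA rows. The 35 higher rows gained 697 CPM in all, of which NORAD gave 169, and the 90 lower rows changed by -964 CPM.

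**Figure D2:**
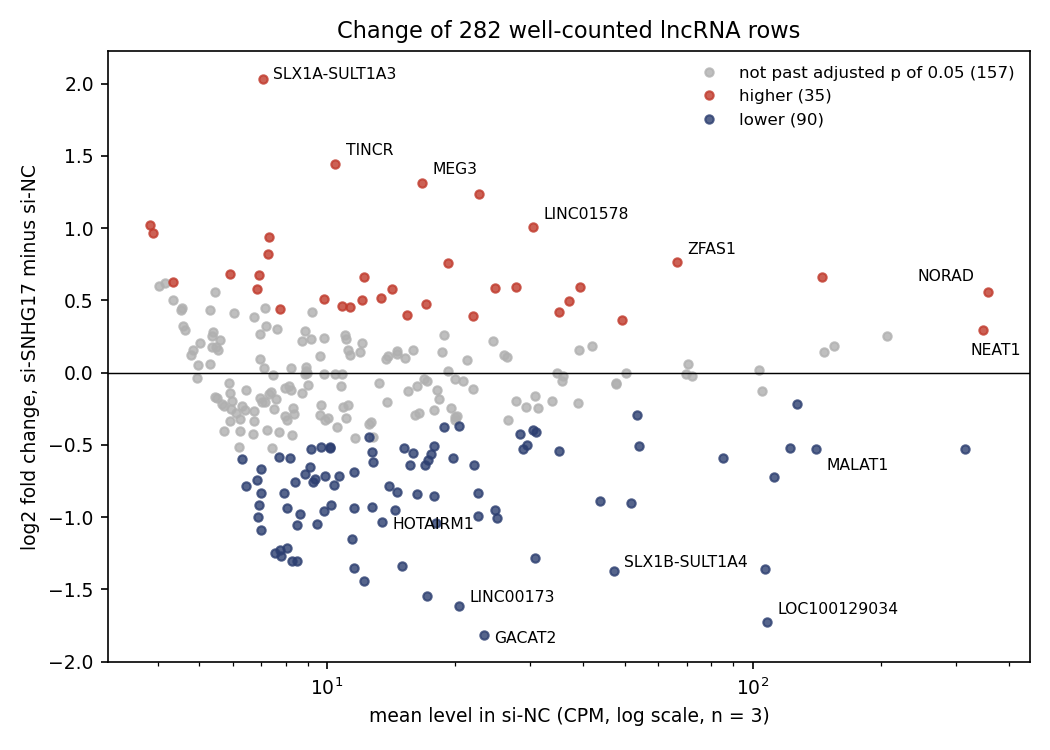
Log2 fold change (si-SNHG17 minus si-NC) of each of the 282 rows against its mean si-NC level (CPM, log axis, n = 3); colours mark the 35 higher (red), 90 lower (blue) and 157 other rows. Points of every colour crowd at low levels, where blue outnumber red, and the most abundant rows, NORAD and NEAT1, sit above 0.

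Position in the genome could be read for most rows from RefSeq and GENCODE. The 79 intergenic rows, with no coding gene overlapping or starting head-to-head within 2000 bases, had 12 higher and 34 lower. The 58 rows antisense to a coding gene had 4 higher and 23 lower, the 37 divergent rows 3 higher and 8 lower, and the 11 rows overlapping a coding gene on the same strand 2 higher and 5 lower. Another 35 rows are read-through transcripts that join 2 coding genes, with 6 higher and 8 lower. RefSeq now lists 14 rows as coding, with 3 higher and 2 lower, and 3 as pseudogenes (TP73-AS1, PSMD5-AS1 and LINC01296), with 0 past the threshold by edgeR and a lowest unadjusted p of 0.218. The remaining 45 had no usable position or strand, with 5 higher and 10 lower. Without the read-through, coding and pseudogene rows, 26 of 230 were higher and 80 lower.

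Among purely noncoding rows the largest rise with a known role was that of MEG3, a maternally expressed imprinted RNA of the DLK1 cluster known as a tumour suppressor that raises p53 activity. It had 46.3, 38.7 and 39.3 CPM in si-SNHG17 and 19.2, 14.9 and 16.0 CPM in si-NC. Every si-SNHG17 library stood far above every si-NC library, and the log2 fold change was 1.31 ± 0.126 (SE, edgeR adjusted p = 2.59e-06). MEG3 carries the gene of miR-770, shown above. TINCR, an epidermal differentiation RNA that RefSeq now lists as coding, had 31.4, 30.3 and 23.6 CPM in si-SNHG17 and 10.2, 9.76 and 11.3 CPM in si-NC. Its groups lay far apart, with a log2 fold change of 1.44 ± 0.143 (SE, edgeR adjusted p = 3.19e-06).

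LINC01578, which RefSeq names CHASERR, is known to hold down the neighbouring chromatin remodeller gene CHD2. It had 54.2, 65.6 and 63.7 CPM in si-SNHG17 and 32.9, 25.9 and 32.6 CPM in si-NC. Every si-SNHG17 library was above every si-NC library, and the log2 fold change was 1.01 ± 0.118 (SE, edgeR adjusted p = 1.47e-05). CHD2 had 8.65, 8.95 and 8.77 CPM in si-SNHG17 and 8.42, 6.51 and 5.34 CPM in si-NC (log2 fold change 0.39, edgeR adjusted p = 0.119), and passed at 0.0451 without si-NC replicate 1. LOC105376292, on chromosome 9 and with no role known here, had 55.8, 56.4 and 48.8 CPM in si-SNHG17 and 23.0, 20.8 and 24.4 CPM in si-NC, again with no overlap (log2 fold change 1.24, edgeR adjusted p = 1.08e-06). LOC284023, which RefSeq names RNF227 and lists as coding, had a log2 fold change of 1.02 (edgeR adjusted p = 0.00975), and did not pass without si-SNHG17 replicate 3 (adjusted p = 0.0591).

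The most strongly lowered noncoding row was GACAT2, an RNA named for gastric cancer. It had 5.42, 7.75 and 6.61 CPM in si-SNHG17 and 19.7, 20.3 and 30.0 CPM in si-NC. In si-NC, replicate 3 stood above the others, and all stood clear of the si-SNHG17 libraries (log2 fold change -1.81 ± 0.193 SE, edgeR adjusted p = 6.39e-06). LOC100129034 had 35.3, 31.7 and 30.8 CPM in si-SNHG17 and 114, 113 and 97.4 CPM in si-NC. The spread within groups was narrow beside the gap, and the log2 fold change of -1.73 ± 0.0995 (SE) had an edgeR adjusted p of 2.3e-08. LINC00173 had 8.03, 5.75 and 6.27 CPM in si-SNHG17 and 19.1, 21.1 and 21.0 CPM in si-NC, without overlap (log2 fold change -1.62, edgeR adjusted p = 2.76e-06).

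Further falls of more than 2-fold without overlap included LOC100505666 (RefSeq DCST1-AS1), at 5.78 ± 1.37 CPM in si-SNHG17 and 17.2 ± 0.463 CPM in si-NC. MINCR, a MYC-induced RNA, averaged 4.49 ± 0.509 CPM in si-SNHG17 and 12.2 ± 2.16 CPM in si-NC. LOC100505771, which RefSeq names MHENCR, averaged 5.91 ± 0.713 CPM in si-SNHG17 and 15.01 ± 0.768 CPM in si-NC. These 3 had log2 fold changes of -1.55, -1.44 and -1.34, and the highest of their edgeR adjusted p-values was 4.01e-05. LOC100130111 (RefSeq LCIIAR) averaged 12.6 ± 1.59 CPM in si-SNHG17 and 30.7 ± 1.94 CPM in si-NC, and CKMT2-AS1 averaged 3.31 ± 0.497 CPM in si-SNHG17 and 8.25 ± 0.518 CPM in si-NC. HOTAIRM1, an RNA known from myeloid differentiation, had 6.15, 6.15 and 7.52 CPM in si-SNHG17 and 12.9, 12.7 and 14.9 CPM in si-NC. Its log2 fold change was -1.04 ± 0.162 (SE, edgeR adjusted p = 0.000189), and its groups did not overlap.

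**Figure D3:**
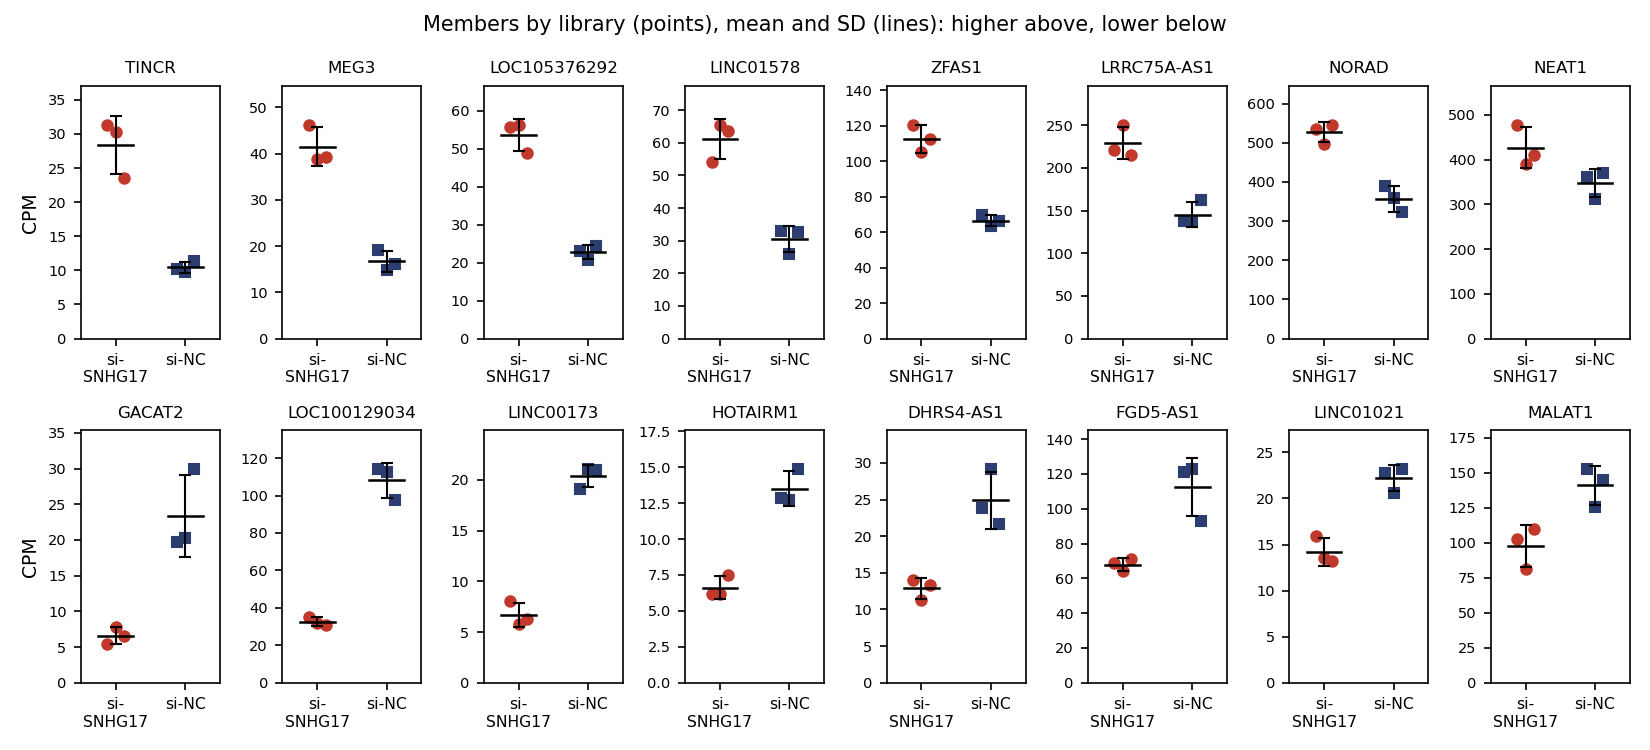
Level (CPM) of 8 higher rows above and 8 lower rows below in each library, with si-SNHG17 left and si-NC right in every panel; points are libraries, the long bar the mean and the whiskers the SD (n = 3). In all 16 panels the si-SNHG17 and si-NC libraries do not overlap.

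The nuclear RNAs moved in different directions. Of 5 rows from a list of nuclear-retained RNAs drawn from background knowledge, MEG3, LINC01578 and NEAT1 were higher, MALAT1 was lower and TUG1 did not pass, with a median log2 fold change of 0.29 against 0.01 over all genes tested. NEAT1, the scaffold of paraspeckles, had 478, 391 and 410 CPM in si-SNHG17 and 361, 312 and 371 CPM in si-NC. The lowest si-SNHG17 library was only just above the highest si-NC library (log2 fold change 0.29 ± 0.0928 SE, edgeR adjusted p = 0.0220), and the call was lost without si-SNHG17 replicate 1 (0.128) or si-NC replicate 2 (0.117). MALAT1, an RNA of nuclear speckles encoded next to NEAT1 on chromosome 11, had 103, 80.9 and 110 CPM in si-SNHG17 and 153, 126 and 145 CPM in si-NC. Its groups did not overlap, and the log2 fold change was -0.53 ± 0.112 (SE, edgeR adjusted p = 0.00196).

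Of 6 cytoplasmic RNAs on a second list, NORAD, ZFAS1 and TINCR were higher, H19 was lower and OIP5-AS1 and LINC00152 (CYTOR) did not pass, with a median of 0.34. NORAD had 535, 498 and 547 CPM in si-SNHG17 and 388, 360 and 323 CPM in si-NC. Its si-SNHG17 libraries were all well above its si-NC libraries, with a log2 fold change of 0.56 ± 0.0825 (SE, edgeR adjusted p = 0.000112). H19, the imprinted fetal RNA that carries miR-675, had 5.01, 7.35 and 4.79 CPM in si-SNHG17 and 8.08, 8.58 and 10.7 CPM in si-NC (log2 fold change -0.66, edgeR adjusted p = 0.0213). That call was lost without si-SNHG17 replicate 1 or 3 or si-NC replicate 3, with adjusted p-values of 0.0833, 0.0863 and 0.0604.

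RefSeq places a snoRNA gene in 5 rows, of which ZFAS1 and LRRC75A-AS1 were higher, LOC105371743 and the read-through row SENP3-EIF4A1 were lower, and the read-through row ATP6V1G2-DDX39B did not pass. ZFAS1, which carries SNORD12, SNORD12B and SNORD12C, had 121, 105 and 112 CPM in si-SNHG17 and 69.4, 63.4 and 66.5 CPM in si-NC. LRRC75A-AS1, which RefSeq names SNHG29 and which carries SNORD49A, SNORD49B and SNORD65, had 222, 251 and 215 CPM in si-SNHG17 and 138, 136 and 162 CPM in si-NC. In both, every si-SNHG17 library was above every si-NC library, with log2 fold changes of 0.76 ± 0.0869 and 0.66 ± 0.0914 (SE, edgeR adjusted p = 1.19e-05 and 6.57e-05). LOC105371743, now SNHG30 in RefSeq and host of SNORD7, was lower, with 5.01, 3.20 and 4.22 CPM in si-SNHG17 and 8.08, 7.79 and 9.65 CPM in si-NC (log2 fold change -1.06, edgeR adjusted p = 0.00121). SENP3-EIF4A1 had 106, 110.2 and 111 CPM in si-SNHG17 and 124, 129 and 128 CPM in si-NC (log2 fold change -0.22, edgeR adjusted p = 0.0316). Its groups did not overlap, but the call was lost in 9 of the alternatives, among them leaving out any 1 library other than si-NC replicate 3 (adjusted p = 0.0612 to 0.120). ZNFX1, the coding gene beside ZFAS1, had 309, 318 and 286 CPM in si-SNHG17 and 206, 194 and 187 CPM in si-NC, a log2 fold change of 0.64 (edgeR adjusted p = 1.87e-05). A list drawn from background knowledge as snoRNA hosts had 4 rows, but only ZFAS1 is among the 5 in which RefSeq places a snoRNA gene. On it ZFAS1 and LINC01578 were higher, and TUG1 and LINC00910 did not pass. The median of 0.45 over these 4 rows therefore does not describe snoRNA hosts.

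A search for microRNA genes lying within a row on its strand found 9 rows. Of these MEG3 was higher, H19, MIR4435-2HG and LOC646762 (RefSeq MIR550A3HG) were lower, and 5 did not pass. The read-through rows DYX1C1-CCPG1 and ARL2-SNX15 are among those 5. MIR22HG, a microRNA host by name, was not found by the search, so the 9 are not a full count. It did not pass (log2 fold change 0.22, edgeR adjusted p = 0.282). LOC646762 had 13.2, 13.3 and 10.9 CPM in si-SNHG17 and 17.9, 21.0 and 14.7 CPM in si-NC. Its groups did not overlap (log2 fold change -0.51, edgeR adjusted p = 0.0200), but the call was lost without si-SNHG17 replicate 3 (0.0844) or si-NC replicate 2 (0.117). MIR4435-2HG had a log2 fold change of -0.52 (edgeR adjusted p = 0.0394), which did not hold without si-SNHG17 replicate 2 or 3 or si-NC replicate 1 or 2 (0.165, 0.103, 0.0701 and 0.138). On a list of microRNA hosts drawn from background knowledge, which leaves out MEG3, NRAV was higher, but the search found no microRNA gene in it. H19 and MIR4435-2HG were lower and 4 of the 7 rows on that list did not pass, with a median of -0.28. MIR34AHG, the p53-induced host of miR-34a, had 15.3, 12.5 and 12.8 CPM in si-SNHG17 and 16.5, 16.96 and 15.7 CPM in si-NC (log2 fold change -0.28, edgeR adjusted p = 0.120).

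Of 6 rows on the list of p53-linked RNAs, MEG3 and NEAT1 were higher, LINC01021 and LINC00963 were lower, and MIR34AHG and TP53TG1 did not pass, with a median log2 fold change of -0.26. LINC01021, which RefSeq names PURPL, is induced by p53 and restrains it. It had 16.0, 13.5 and 13.2 CPM in si-SNHG17 and 22.8, 20.6 and 23.2 CPM in si-NC, without overlap (log2 fold change -0.64 ± 0.129 SE, edgeR adjusted p = 0.00132). The coding p53 targets CDKN1A, a cell cycle inhibitor, and MDM2, the ubiquitin ligase of p53, were higher, with log2 fold changes of 0.64 and 0.96 (edgeR adjusted p = 0.000156 and 2.51e-06). Both were chosen after their values were seen and do not stand for coding p53 targets as a set. CDKN1A averaged 785 CPM in si-SNHG17 and 503 CPM in si-NC, and MDM2 averaged 161 CPM in si-SNHG17 and 83.1 CPM in si-NC. LINC00963, lower by 0.43 on the log2 scale, lost its call without si-SNHG17 replicate 2 or 3 or si-NC replicate 1 or 2, with adjusted p-values of 0.107, 0.147, 0.0518 and 0.108.

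Of 12 rows on the list of RNAs reported in carcinoma, ZFAS1, MEG3, LINC01234 and LUCAT1 were higher and HOTAIRM1, MALAT1 and LINC00673 lower, with a median of -0.11. LINC01234 had 39.9, 39.5 and 46.4 CPM in si-SNHG17 and 25.7, 29.6 and 28.0 CPM in si-NC. Its groups did not overlap (log2 fold change 0.59 ± 0.108 SE, edgeR adjusted p = 0.000688). Of 9 rows on the list of stress, NF-kB and interferon-linked RNAs, LUCAT1, NRAV and HEIH were higher and HOTAIRM1 lower, with a median of 0.12. LUCAT1, a stress-induced RNA known to curb interferon responses, had 22.1, 13.98 and 15.5 CPM in si-SNHG17 and 13.5, 11.05 and 11.7 CPM in si-NC. The first si-SNHG17 library stood above the rest, and the edgeR adjusted p of 0.0358 became 0.201 without si-SNHG17 replicate 1, and 0.118 without si-NC replicate 2. LINC00673, lower by 0.40 on the log2 scale, lost its call without si-SNHG17 replicate 2 or 3 or si-NC replicate 1 (adjusted p = 0.0766, 0.0751 and 0.0736). On the list of endoderm and HOX RNAs, HOTAIRM1 was lower and MNX1-AS1 did not pass, with a median of -0.66.

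Rows beside a coding gene were set against that gene. In 90 pairs both rows were tested. Both passed in 21, of which 16 moved the same way and 5 in opposite ways, the lncRNA row alone passed in 15, the coding gene alone in 29, and neither in 25. The lncRNA row thus passed in 36 pairs and the coding gene in 50, against 45.3% of all genes with at least 300 reads. Whether these counts differ from those of unrelated pairs was not tested. Of the antisense pairs with both past the threshold, 7 moved together and 3 apart, and of the divergent pairs 5 together and 2 apart. A coding gene was counted with each of 2 rows in 3 cases, SLC9A3 with LOC100288152 and PP7080, TRIM52 with CTC-338M12.4 and TRIM52-AS1, and ZFP62 with LINC00847 and HEIH. With strand use unstated, reads of the 2 genes of an antisense pair cannot be told apart.

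JHDM1D-AS1, which starts 278 bases from the histone demethylase gene KDM7A and runs away from it, had 7.30, 8.79 and 6.38 CPM in si-SNHG17 and 5.35, 3.06 and 3.28 CPM in si-NC. It rose without overlap by 0.97 ± 0.238 (log2, SE, edgeR adjusted p = 0.00540), and KDM7A rose by 1.56 ± 0.137 (edgeR adjusted p = 1.17e-06). DHRS4-AS1 had 14.1, 11.3 and 13.3 CPM in si-SNHG17 and 23.8, 29.2 and 21.6 CPM in si-NC, a log2 fold change of -0.95, and the reductase gene DHRS4 on the other strand had a log2 fold change of -1.04. NOP14-AS1 averaged 13.97 ± 1.57 CPM in si-SNHG17 and 7.31 ± 0.441 CPM in si-NC, and it and the ribosome biogenesis gene NOP14 had log2 fold changes of 0.94 and 0.34. NOP14 itself did not pass without si-SNHG17 replicate 1 or 3 or si-NC replicate 2 (adjusted p = 0.0680, 0.0569 and 0.0719). TMPO-AS1 and TMPO, a nuclear lamina gene, were both lower (log2 fold changes -0.79 and -0.53), as were TM4SF1-AS1 and TM4SF1, a membrane protein of carcinoma cells (-0.64 and -0.62). NBR2 and BRCA1, a DNA repair gene, were lower at -0.59 and -0.72, although NBR2 lost its call without any 1 of si-SNHG17 replicate 1 or 2 or si-NC replicate 1 or 2 (adjusted p = 0.105, 0.0725, 0.0626 and 0.0600).

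In 5 pairs the lncRNA row and its neighbour moved in opposite ways. LOC100505666 was lower by 1.55 on the log2 scale, whereas EFNA4, an ephrin ligand gene on the other strand, was higher by 0.90. LOC100505771 was lower by 1.34 while GMEB2, whose start lies 134 bases away, was higher by 0.34, and the same held for URB1-AS1 and URB1 (-0.59 and 0.35), ZNF436-AS1 and ZNF436 (-0.74 and 0.46) and SVIL-AS1 and SVIL (-0.64 and 0.26). The 4 lncRNA rows of these last pairs kept their calls without any single library, but their neighbours did not. GMEB2 had edgeR adjusted p-values of 0.0539 to 0.201 with each library left out in turn, and URB1 lost its call without si-SNHG17 replicate 1 (0.0593). ZNF436 lost its call without si-SNHG17 replicate 2 or 3 or si-NC replicate 1 or 3 (0.0528, 0.111, 0.105 and 0.0669), and SVIL without si-SNHG17 replicate 1 or 3 or si-NC replicate 1 or 3 (0.175, 0.118, 0.0896 and 0.0816). Counting also the pairs whose coding gene was not tested, the coding gene had under 100 reads in 16 pairs. Most of these are therefore outside the pairs counted above. How reads that fit both genes of an overlapping pair were assigned is not stated, so the levels and changes of both are uncertain. NRAV, an antiviral regulator RNA that overlaps the dynein light chain gene DYNLL1, had 1880 reads against 5 for DYNLL1, and it had 39.0, 36.2 and 36.5 CPM in si-SNHG17 and 26.1, 24.95 and 23.5 CPM in si-NC (log2 fold change 0.58, edgeR adjusted p = 0.000497). DLGAP1-AS1 had 1124 reads against 3 for DLGAP1, and 12.3, 12.2 and 12.9 CPM in si-SNHG17 against 25.2, 26.4 and 23.5 CPM in si-NC. LOC645553 had 6246 reads and IGFL2 0.

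**Figure D4:**
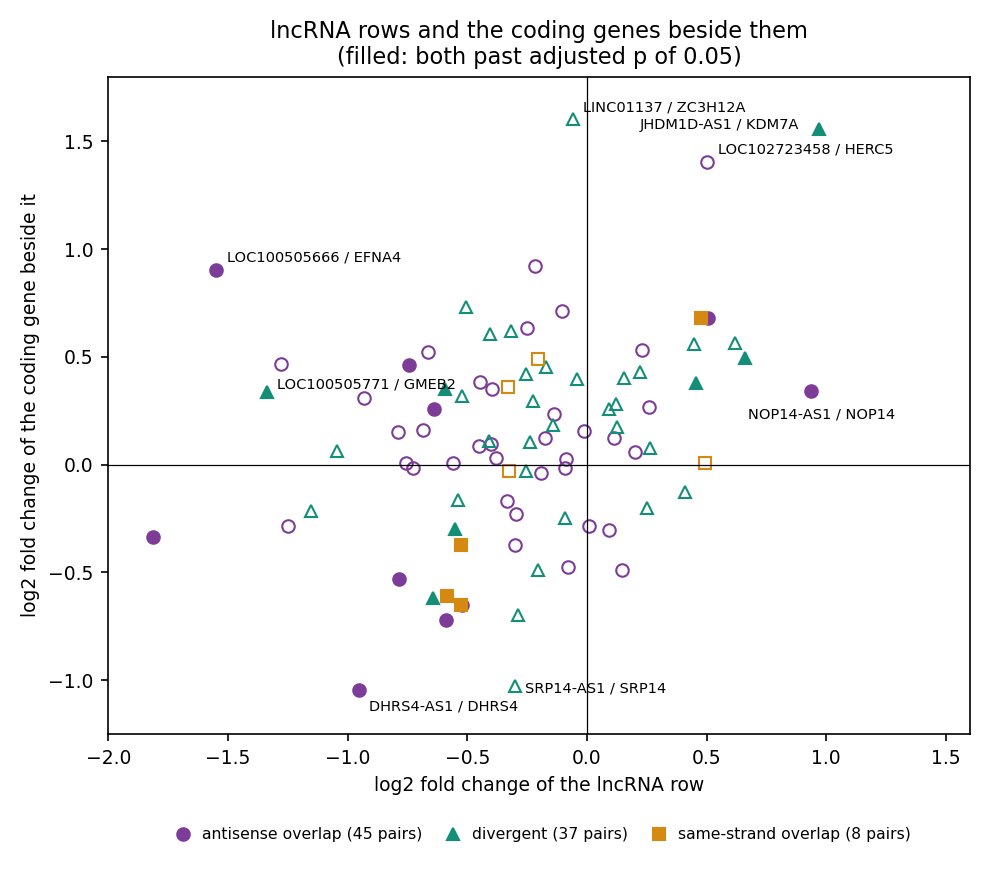
Log2 fold change of the coding gene (y axis) against that of the lncRNA row beside it (x axis) for 90 pairs; shapes give the kind of overlap, and filled shapes the 21 pairs in which both passed. Filled shapes lie at the upper right or lower left in 16 pairs and at the upper left in 5.

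The read-through rows formed a class of their own. The 35 rows held 105980 reads, 26.6% of the reads of the 282 rows, and 18 of them had more reads than either gene's own row. BLOC1S5-TXNDC5 had 16132 reads, against 15 for BLOC1S5 and 440 for TXNDC5, a protein disulfide isomerase of the endoplasmic reticulum. ATP6V1G2-DDX39B had 6072 reads, against 69 for ATP6V1G2 and 54 for the RNA helicase DDX39B. In 22 of the 35 rows at least 1 of the 2 genes had under 100 reads, and how the counting assigned reads that fit both a read-through row and a single gene is not stated, so these rows are uncertain.

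Among them, P2RX5-TAX1BP3 had 39.1, 46.2 and 39.7 CPM in si-SNHG17 and 103, 96.6 and 122 CPM in si-NC. The groups were far apart (log2 fold change -1.36 ± 0.109 SE, edgeR adjusted p = 4.8e-07), while P2RX5 alone had a log2 fold change of -0.10 and TAX1BP3 had 2 reads. BLOC1S5-TXNDC5 had 218, 223 and 218 CPM in si-SNHG17 and 313, 332 and 303 CPM in si-NC (log2 fold change -0.53, edgeR adjusted p = 6.14e-05). GJA9-MYCBP and RAB4B-EGLN2 were lower at -1.04 and -0.99, and INO80B-WBP1 was higher at 0.60. The RAB4B row alone was lower still, at -1.29, while EGLN2 was higher at 0.39. WBP1 alone had a log2 fold change of -0.02 and did not pass, and INO80B had 52 reads. GJA9 and MYCBP had 3 and 21 reads.

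The largest rise of all, in SLX1A-SULT1A3, and the sixth largest fall, in SLX1B-SULT1A4, belong to near-identical copies. SLX1A-SULT1A3 had 308, 566 and 74 reads in the si-SNHG17 libraries and 53, 87 and 70 reads in the si-NC libraries. SLX1B-SULT1A4 had 45, 156 and 341 reads in the si-SNHG17 libraries and 345, 389 and 683 reads in the si-NC libraries. The si-SNHG17 libraries high in one copy were low in the other, and the 2 copies summed to 36.7, 57.5 and 47.2 CPM in si-SNHG17 and 45.2, 46.8 and 70.3 CPM in si-NC, which overlapped. The fall of SLX1B-SULT1A4 (log2 fold change -1.37, edgeR adjusted p = 0.0253) was lost without si-SNHG17 replicate 1 or 2 (0.0710 and 0.0919), and the separate values are uncertain.

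**Figure D5:**
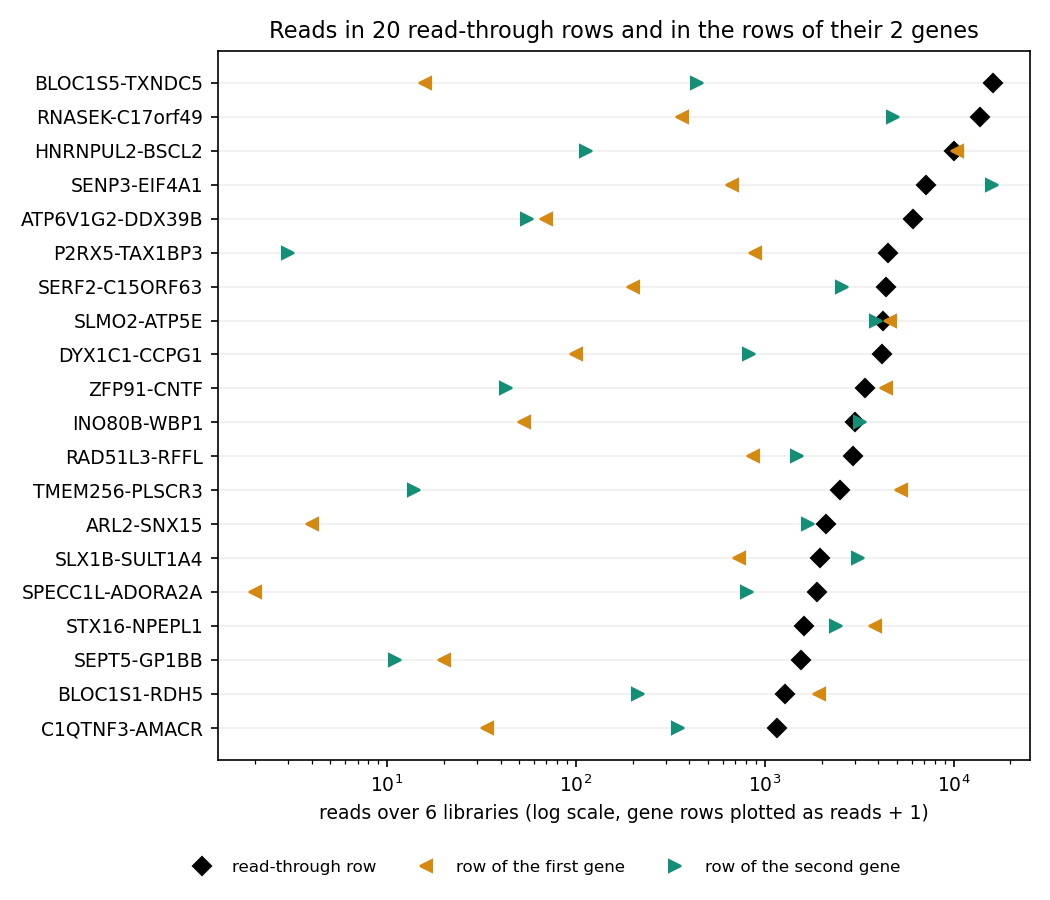
Reads over 6 libraries (log axis, gene rows plotted as reads + 1) in the 20 read-through rows with most reads and in the rows of both joined genes. The diamonds of BLOC1S5-TXNDC5 and ATP6V1G2-DDX39B lie to the right of both triangles, while SENP3-EIF4A1 lies between them.

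Of the other well-counted rows, FGD5-AS1 had 68.8, 64.0 and 71.0 CPM in si-SNHG17 and 121, 123 and 93.0 CPM in si-NC. Its groups did not overlap, and the log2 fold change was -0.73 ± 0.108 (SE, edgeR adjusted p = 0.000121). LINC01433 was higher, with 30.1, 39.0 and 27.9 CPM in si-SNHG17 and 19.9, 16.5 and 21.3 CPM in si-NC (log2 fold change 0.76, edgeR adjusted p = 0.000923). MMP24-AS1, which RefSeq now lists as coding, was lower, with 21.8, 25.5 and 23.5 CPM in si-SNHG17 and 40.9, 42.3 and 48.2 CPM in si-NC (log2 fold change -0.89, edgeR adjusted p = 2.46e-05). Several widely studied RNAs did not pass, among them TUG1, with 163 ± 12.2 CPM in si-SNHG17 and 147 ± 18.9 CPM in si-NC, and OIP5-AS1, a regulator of mitosis, with 45.2 ± 2.63 CPM in si-SNHG17 and 47.7 ± 8.42 CPM in si-NC.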

How the data were processed

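RNA from 3 si-SNHG17 and 3 si-NC libraries of A549 cells was measured, with groups taken from the sample titles. The authors deposited raw whole-number counts per gene with a gene type column; the submitters' processing notes name the build GRCh38, and the aligner, counter, annotation and use of strand are not stated. Totals were 8643076 to 12477214 counts a library. The membership rule, the role lists and the rule for named genes (15 highest per length, 15 largest rises and falls, role lists, rows beside coding genes) were chosen with earlier results of these data known; CHD2, ZNFX1, CDKN1A, MDM2, LOC105371743, LOC646762, GJA9-MYCBP, RAB4B-EGLN2, INO80B-WBP1 and MMP24-AS1 were added after their values were seen.

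The test was edgeR 4.0.16 under R 4.3.3 (filterByExpr, TMM, glmQLFit and glmQLFTest, group as the only term), with Benjamini-Hochberg adjustment over 15614 genes and a threshold of 0.05; the pipeline was tested on simulated data. Library pairs differed beyond sampling noise (chi-square per degree of freedom 2.34 to 9.49 within groups), so none was merged; si-NC replicate 3 stood apart, at 9.49 and 9.1 from si-NC replicates 1 and 2, which differed by 2.34. Alternatives used DESeq2 1.42.0, limma 3.58.1, other scaling and filters, a replicate block and single libraries left out. Positions and sequences came from RefSeq GRCh38.p14, in which 257 of 282 rows matched by symbol, gene ID or unique synonym, and lengths and strand from GENCODE 29. A per-length value replaced the planned RefSeq transcript length by GENCODE exon length.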

Additional observations from a re-analysis of the deposited data

How the results depend on the processing

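Across DESeq2 size factors, upper-quartile scaling, library totals only, the DESeq2 test, limma-voom, no low-count filter, a mean of at least 1 CPM and the replicate block, 28 to 38 rows were higher and 76 to 90 lower. Library totals only gave 38 higher and 82 lower, with 55.5% of all calls higher against 50.02%, and put the median log2 fold change of all genes at 0.05 against 0.01. Leaving out 1 library gave 25 to 39 higher and 75 to 91 lower rows, and 4911 to 6601 genes called in all. The highest of these counts came without si-NC replicate 3, with 130 rows called, and 101 to 108 rows were called without any 1 of the others. A 2-fold minimum left 6 higher and 23 lower rows, and a minimum of 1000 reads left 20 and 27, both by construction. Of 125 calls, 88 (22 higher, 66 lower) held under all 14 alternatives, and 37 were lost without at least 1 library. The numbers did not pair the libraries (correlations of like-numbered deviations 0.0605, -0.114 and -0.091); the replicate block called 33 higher and 83 lower rows, 116 shared with the fit without it.

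Named RNAs near 0 changed sign, and the cause was not tested. HCG11 had log2 fold changes of 0.0298 with library totals, 8.11e-05 with DESeq2 and 0.0056 with no filter, and -0.102 to 0.0547 with a library left out. With a library left out, LINC00674 ran from -0.204 to 0.0215, LINC00493 from -0.0143 to 0.122, OIP5-AS1 from -0.217 to 0.0269, LINC00152 from -0.0504 to 0.248, MIR100HG from -0.064 to 0.394, NKILA from -0.145 to 0.115 and FOXD2-AS1 from -0.0721 to 0.125. None of these 8 had passed in the edgeR test. Of the rows, 193 had under 1000 reads; what depth does to the calls was not tested.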

Other observations

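In the 300-base start windows of purely noncoding rows, the letters TGACNNNGC of the antioxidant response element, searched on both strands, stood in 6 of 19 windows of higher rows (31.6%), in 13 of 62 windows of lower rows (21.0%) and in 11 of 85 windows of rows that did not pass (12.9%), against 13.3% of all 35116 RefSeq windows. The AP-1 letters TGANTCA stood in 2, 8 and 6 windows of higher, lower and other rows, against 7.71% of all windows. The median window held 25 CpG in higher rows, 21.5 in lower rows and 25 in rows that did not pass, against 14 over all windows. These are counts of letters with no test.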
